A study of Mus musculus with 2 samples.

Results

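The natriuretic peptide system was read here through 7 genes: the ligand genes Nppa, Nppb and Nppc, the receptor genes Npr1, Npr2 and Npr3, and Corin, which encodes the processing protease. They were taken by symbol, as the rows whose gene identifier, without its version, carries one of these names in GENCODE M21. All 7 had a row, among 43346 mouse genes in the tables, and they held 26 of 103639 transcripts. Hearts of B6NCrl mouse embryos at embryonic day 12.5 gave 2 libraries, labelled as biological replicates 1 and 2 of 1 group, with male and female embryos pooled. RNA over 200 nt was extracted with mirVana reagents and 10 ng of it went into each library, with ERCC spike-in RNAs; the labels' protocol links to a user guide of the SMARTer Ultra Low kit. No treatment, mutation or second stage was included, so these hearts were compared with nothing else. Errors are the SD of the 2 libraries throughout, no p-value is given, and nothing in the labels says that the libraries came from separate litters, so this spread may be partly technical.

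Natriuretic peptides are hormones that share a ring closed by a disulfide bond. Atrial natriuretic peptide (from Nppa) and B-type natriuretic peptide (from Nppb) are made mainly by heart muscle cells and act on the receptor guanylyl cyclase encoded by Npr1, whereas C-type natriuretic peptide (from Nppc) acts on the related cyclase encoded by Npr2. Both cyclases raise cyclic GMP inside the cell; the Npr3 receptor has no cyclase and takes the peptides up for breakdown. In the embryonic mouse heart, Nppa is a classic marker of atrial muscle and of the inner, trabecular muscle of the ventricles.

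The coding bases of the ring of the B-type and C-type peptides are shown because the ring is what the receptors bind. They were read from GENCODE M21 transcripts on GRCm38, the build of the deposited tables (mm10), and are written 5′ to 3′ on the coding strand. Capitals mark bases identical in both genes.
Nppb, exon 2 of 3, chr4:147986464-147986514, plus strand: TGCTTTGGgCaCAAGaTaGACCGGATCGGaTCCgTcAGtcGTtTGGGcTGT
Nppc, exon 2 of 3, chr1:86669667-86669717, minus strand: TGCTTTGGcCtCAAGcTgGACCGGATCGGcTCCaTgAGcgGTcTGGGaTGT

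Of the 51 bases, 40 were identical in Nppb and Nppc, and 13 of the 17 codons gave the same amino acid. The ring ended the Nppc precursor with 0 codons after it, whereas 6 codons followed it in Nppb. The longest run of identical bases between the transcripts of Nppb and Nppc was 11 bases. It was 18 bases for the most alike pair of receptors, Npr1 and Npr2.

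The 250 bases before the RefSeq start of Nppa (GRCm38.p6, chr4:148000472-148000721, plus strand) are shown because Nppa had the highest level of the 7 genes. Capitals mark, in order, a T-box match, an NKX match, a GATA match, a further NKX match and a TATAAA match.
Nppa promoter: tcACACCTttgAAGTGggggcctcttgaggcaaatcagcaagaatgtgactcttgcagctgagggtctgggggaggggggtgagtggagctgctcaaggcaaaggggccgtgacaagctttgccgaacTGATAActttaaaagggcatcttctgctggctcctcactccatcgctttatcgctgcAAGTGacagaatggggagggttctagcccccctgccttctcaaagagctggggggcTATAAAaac
For Nppb, 30 bases around 2 GATA matches are shown, with the matches in capitals (GRCm38.p6, chr4:147985799-147985828, plus strand). They lie upstream of the RefSeq start but downstream of the GENCODE start, since the RefSeq start of Nppb is 112 bases further downstream.
Nppb GATA matches: tgcagcTGATAAatcagAGATAAccccacc

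The motifs searched on both strands were AGATAA or TGATAA for GATA factors, AAGTG for NKX factors, AGGTGT for T-box factors, CANNTG for the E-box and the CArG box by its name. TATAAA, the letters of a TATA box, was searched on the gene's strand only and was added after the promoters had been seen. The GATA motif was in 16.6% of 32851 RefSeq promoters of the same length, the T-box motif in 11.8%, the NKX motif in 40.7%, the E-box in 66.2%, the TATA box in 7.59% and the CArG box in 1.47%. Nppa had 1 GATA, 2 NKX, 1 T-box and 2 E-box matches, of which the E-box CAAGTG overlaps an NKX match. Nppb had 2 GATA matches and 1 E-box. All 3 ligand genes held the letters TATAAA, at any place in the window, and none of the 4 other members did. Counted from the RefSeq start, the match lay at -9 to -4 in Nppa and at -31 to -26 in Nppb. No member held a CArG match. Npr2 held 1 T-box match, and Nppc, Npr1, Npr3 and Corin held none of the GATA, NKX or T-box letters in this window. These matches are letters and not measured binding.

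All 7 genes were detected, here meaning at least 1 TPM (a length-scaled share of all transcripts, spike-ins included) in both libraries. Over all nuclear protein-coding genes, 57.5% of 21461 passed the same rule. In these whole hearts, a gene made by few cells and a gene made at little RNA per cell cannot be told apart. From high to low, the order was Nppa, Nppb, Corin, Npr3, Npr2, Npr1 and Nppc.

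**Figure D1:**
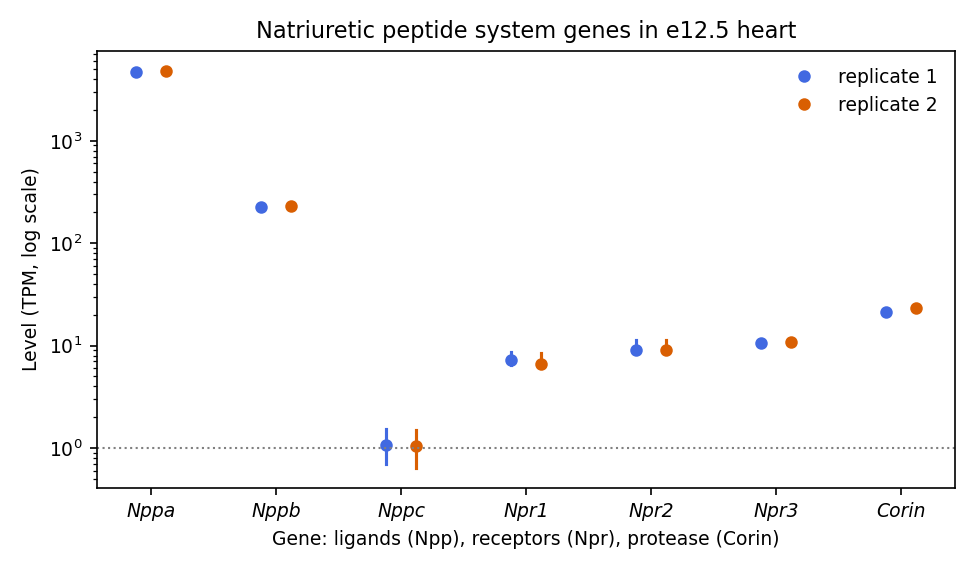
Levels in TPM (log scale) of the 3 ligand genes, the 3 receptor genes and Corin, with 1 point per library and the deposited interval as a vertical line, hidden behind the point where it is narrow. The dotted line is 1 TPM; Nppa sits at 4649 and 4839 TPM, the receptors between 6.65 and 10.88, and Nppc just above the dotted line.

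Nppa (ENSMUSG00000041616.9, mm10 chr4:148000722-148002079, plus strand) dominated the ligands. It had 4649 TPM in replicate 1 and 4839 in replicate 2, from 84147 and 79167 estimated reads, which was 0.251% and 0.258% of all reads on mouse genes. It ranked 7 of 21461 nuclear protein-coding genes. The genes next above it were Hba-x, an embryonic alpha-like globin, at 4971 ± 193 TPM, the ventricular myosin light chain Myl2 at 6043 ± 259 TPM and the cardiac actin Actc1 at 9805 ± 76.9 TPM. Next below were Myl7, the atrial myosin light chain, at 4678 ± 253 TPM, cardiac troponin T (Tnnt2) at 4406 ± 83.3 TPM and Atp5b, a subunit of ATP synthase, at 3957 ± 3.29 TPM. The mean of Myl7 lay within 1 SD of that of Nppa, and Hba-x had 5107 TPM in replicate 1 and 4834 in replicate 2, above Nppa in the first and below it in the second. The order of Nppa, Hba-x and Myl7 was therefore not resolved.

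Nppb (ENSMUSG00000029019.8, chr4:147985788-147987205, plus strand) had 226 TPM in replicate 1 and 230 in replicate 2, from 3639 and 3345 reads. Its rank was 547. In TPM its libraries differed less than those of Nppa in relation to the level, but not with counts scaled to spike-in totals. Nppc (ENSMUSG00000026241.5, chr1:86666291-86670571, minus strand) had 1.08 and 1.04 TPM, from only 24 and 21 reads. The exact Poisson intervals of those counts, at 95% and for counting error only, were 15.4 to 35.7 and 13.0 to 32.1 reads. The deposited intervals of Nppc, 0.693 to 1.54 TPM and 0.639 to 1.51 TPM, both crossed the 1 TPM line, and its rank was 12461.

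Nppa therefore made up 95.4% of the summed ligand TPM, Nppb 4.58% and Nppc 0.0213%, with shares that differed by at most 0.10 points between libraries. Nppa was 4479 ± 246-fold above Nppc, and Nppb was 215 ± 8.28-fold above it. Both ratios exceeded 3 standard errors taken from the spread between libraries of genes of like abundance; this is a rule on spread and not a test.

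The receptors were far lower than Nppa and Nppb, above Nppc, and close to each other. Npr1 (ENSMUSG00000027931.8, chr3:90450591-90465866, minus strand), the receptor for the atrial and B-type peptides, had 7.20 TPM in replicate 1 and 6.65 in replicate 2. Npr2 (ENSMUSG00000028469.11, chr4:43631935-43651244, plus strand), the receptor for the C-type peptide, had 9.15 and 9.00 TPM. Npr3 (ENSMUSG00000022206.6, chr15:11839896-11907287, minus strand), the clearance receptor, had 10.62 and 10.88 TPM. The TPM values of the 3 receptors did not overlap, but the deposited intervals of Npr2 and Npr3 did. In replicate 1 these were 8.56 to 11.4 TPM for Npr2 and 9.89 to 10.9 TPM for Npr3. That of Npr1 in replicate 1 ended at 8.67 TPM, also inside that of Npr2. The ranks of the 3 receptors were 9346, 8607 and 8099. Their levels were all above the median level of 3.64 TPM over nuclear protein-coding genes and below the median of 18.9 TPM over the detected ones.

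Npr3 was 1.56 ± 0.114-fold above Npr1 and Npr2 was 1.31 ± 0.0584-fold above Npr1, both beyond 3 standard errors. That standard error holds only the spread between libraries. Errors particular to a gene that repeat in both libraries are not in it, so passing does not settle which receptor RNA is more abundant. With replicate 1 or replicate 2 left out, Npr2 over Npr1 was 2.59 and 2.26 standard errors and no longer passed. Npr3 was 1.18 ± 0.0341-fold above Npr2, which was 2.37 standard errors and did not pass that rule. With the deposited posterior mean in place of TPM, Npr3 over Npr2 was only 0.846 standard errors. Npr3 took 40.2 ± 1.15% of the summed receptor TPM, Npr2 33.9% and Npr1 25.9 ± 1.15%. Of the reads, however, Npr3 took 63.1%, because its transcript is the longest, and Npr1 and Npr2 took 16.1% and 20.8%. The receptor sum was 26.8 ± 0.311 TPM, against 4973 ± 137 TPM for the ligand sum, a ratio of 186 (181 in replicate 1 and 191 in replicate 2). TPM counts RNA molecules and says nothing of peptide or receptor protein.

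The small gaps among receptors depended on which transcripts were counted, an alternative chosen after the transcript values had been seen. For Npr1, the transcript with the whole coding sequence (ENSMUST00000029540.8, 22 exons) had 4.11 and 4.13 TPM. A 2-exon transcript annotated as a retained intron near the 3′ end of the gene (ENSMUST00000152510.1, chr3:90450710-90451781) had 2.96 and 2.41 TPM. The short transcript therefore carried 41.1% and 36.2% of the TPM of Npr1 but rested on only 59.5 and 43.7 estimated reads, against 385 and 350 for the whole one.

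For Npr2, the transcript with the whole coding sequence (ENSMUST00000030191.10, 22 exons) had 4.30 TPM in replicate 1 and 5.09 in replicate 2. A shorter protein-coding one (ENSMUST00000128549.1, 17 exons), which starts inside the gene and has 1837 coding bases against 3141, had 3.10 and 2.75 TPM. The 8 other Npr2 transcripts held 18.9% and 12.8% of its TPM. Npr3 had 1 transcript in the files (ENSMUST00000066529.3, 8 exons) and 5 in GENCODE M21, so its split could not be seen.

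With only transcripts that held at least 90% of the longest coding sequence, Npr1 had 4.12 ± 0.0141 TPM, Npr2 4.70 ± 0.559 TPM and Npr3 10.8 ± 0.184 TPM. Npr3 was then 2.30 ± 0.235-fold above Npr2 and 2.61 ± 0.0357-fold above Npr1, and Npr2 was 1.14 ± 0.132-fold above Npr1. Counted in this way, Npr3 stood apart from Npr2 and Npr2 did not stand apart from Npr1, so these calls changed places relative to whole genes. With 1 transcript in the files, Npr3 could not move, and this count could only lower Npr1 and Npr2. The wider gaps below Npr3 were thus fixed in direction by the annotation and do not bear on the order. Npr3 stood apart from Npr1 either way. Using 1 length per gene, that of its longest transcript, all 3 receptors stood apart from each other.

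**Figure D2:**
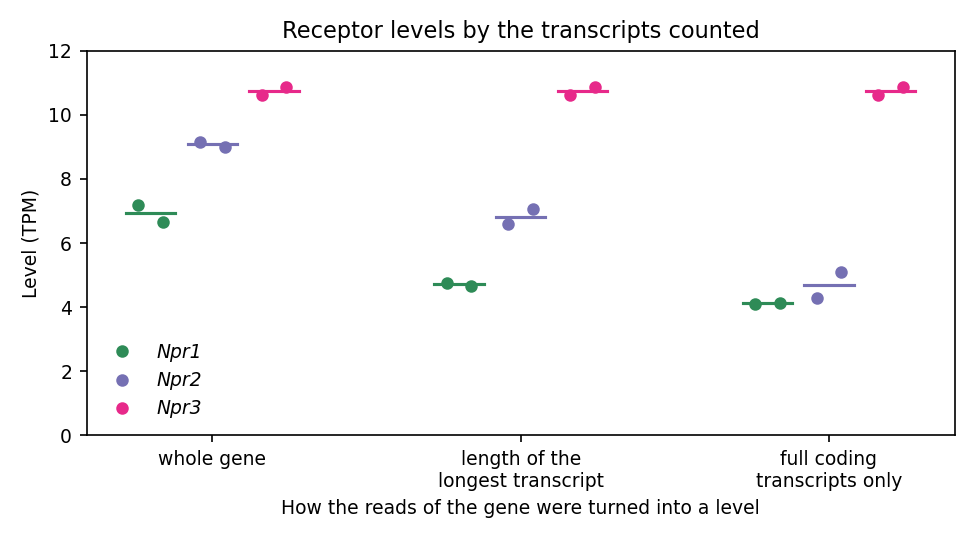
Levels in TPM of Npr1, Npr2 and Npr3 under 3 ways of turning reads into a level, with 1 point per library and a bar at the mean. Npr3, with 1 transcript in the files, could not move and stays near 10.8 TPM. Npr1 is 6.93 for the whole gene and 4.12 for full coding transcripts, and Npr2 is 9.08 and 4.70.

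Corin (ENSMUSG00000005220.6, chr5:72300025-72504473, minus strand) encodes a membrane-bound serine protease of heart muscle cells that cuts the atrial natriuretic peptide precursor. It had 21.4 TPM in replicate 1 and 23.5 in replicate 2, from 2329 and 2296 reads. Its rank was 5519. Corin was 2.09 ± 0.104-fold above Npr3, the highest receptor, and Nppb was 10.2 ± 0.557-fold above Corin. Of the 9 pairs of members compared, 8 were set apart by the 3 standard error rule. Of these pairs, 6 were neighbours after sorting by the same levels, and the share of other gene pairs that pass was not counted. The count is therefore no result about the members.

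Corin was also the member whose transcripts differed most between the libraries. Its transcripts ENSMUST00000167460.4 and ENSMUST00000005352.5, each with 22 exons, differ in the first exon and by 1 base at the 3′ end, and have 104 and 327 bases that the other lacks. ENSMUST00000167460.4 had 12.8 TPM in replicate 1 and 18.1 in replicate 2, which was 59.9% and 77.0% of the gene. ENSMUST00000005352.5 had 8.45 and 5.29 TPM, or 39.5% and 22.5%. The first led in both libraries, and its deposited intervals, 10.5 to 14.4 TPM and 15.3 to 19.3 TPM, did not overlap. Those of the other, 6.33 to 10.0 TPM and 3.62 to 7.18 TPM, did.

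The deposited posterior SD of each was about 104 reads in replicate 1 and 91.2 in replicate 2, out of gene totals of 2329 and 2296. A leading transcript whose share moved by 10 points or more between the libraries was found in 16.5% of 9074 detected nuclear protein-coding genes with several transcripts, and among members in 1 of 3. The 10-point threshold was set after the shares had been seen. For Npr1 and Npr2 the leading share moved by 5.02 and 9.52 points.

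**Figure D3:**
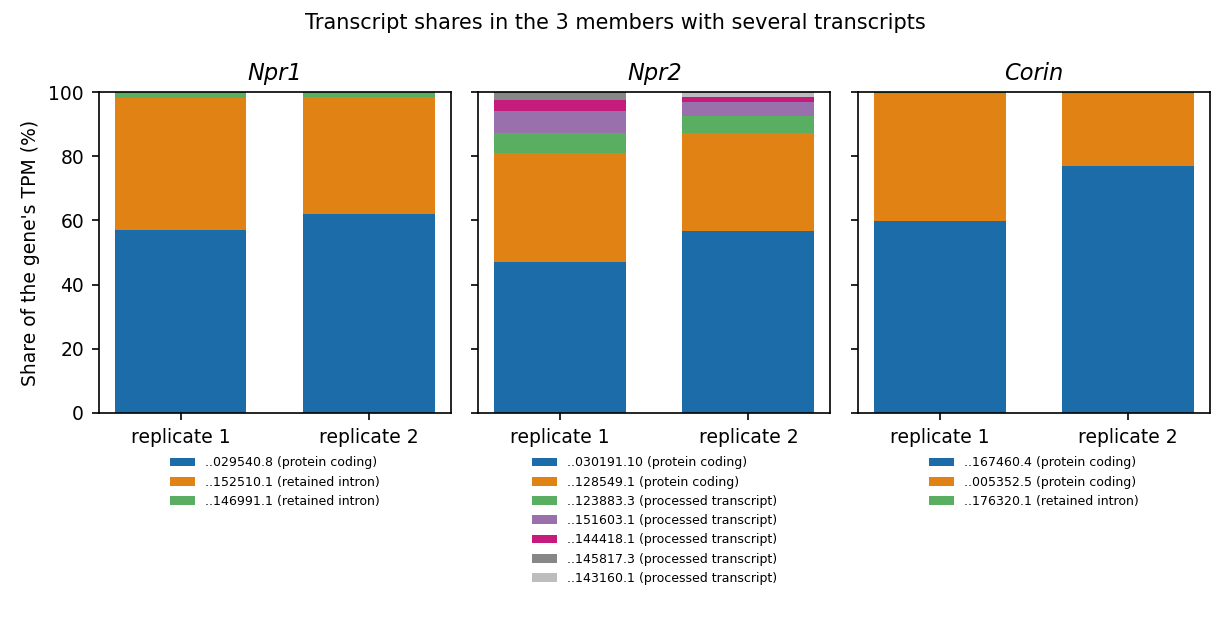
Share of each gene's TPM (percent) held by its transcripts in replicate 1 and replicate 2, for the 3 members with several transcripts in the files; the legends give the end of the transcript identifier and its annotated type. The leading Corin transcript holds 59.9% and 77.0%, that of Npr1 57.1% and 62.1%, and that of Npr2 47.1% and 56.6%.

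As whole genes, the members differed little between libraries. None of the 7 was 1.5-fold or more apart, against 1.29% of 12344 detected nuclear protein-coding genes. On the log2(TPM + 0.1) scale, replicate 2 minus replicate 1 ran between -0.11 for Npr1 and 0.14 for Corin, with a median of 0.02 over all detected genes and a median size, sign left out, of 0.08. The signs for Nppb, Npr2 and Npr3 changed with the scaling, so no direction is given for them.

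Several members overlap genes on the other strand. Gm13054, an antisense gene (chr4:148001091-148004014, minus strand), shares 532 exon bases with Nppa and had 21.9 TPM in replicate 1 and 25.0 in replicate 2. Nppa was 213-fold and 194-fold above it. The posterior SD of Nppa was 19.5 and 20.0 reads and that of Gm13054 had the same values. Since the sources used here do not state whether the libraries keep strand, reads of Nppa and of Gm13054 cannot be told apart over the shared bases. The antisense gene Gm12473 shares 266 exon bases with Npr2 and had 2.11 and 1.95 TPM. Gm16048 on Npr1 and Gm20647 on Corin had at most 0.31 TPM in either library, and Gm5144, which shares 321 exon bases with Npr3, was not analysed here. The deposited interval of Nppa, 4506 to 4568 TPM in replicate 1, lies below its TPM value, since it belongs to the posterior estimate and not to the TPM itself.

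Nppb and Nppa are neighbours in the same orientation, with 13.5 kb from the end of Nppb to the start of Nppa. Of 9 protein-coding genes around them, 5 on the Nppb side and 4 on the Nppa side, 8 were detected, and the median level of the 9 was 20.2 TPM. Mfn2, a mitochondrial fusion gene and the highest of them, had 101 TPM in replicate 1 and 98.4 in replicate 2. Clcn6, a chloride-proton exchanger gene whose nearer end lies 2.18 kb beyond Nppa, had 6.38 and 7.53 TPM. Nppa was thus 682-fold above Clcn6 and 47.7-fold above Mfn2, and Nppb was 2.29-fold above Mfn2.

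The other genes on the Nppb side, Miip, Fv1, Plod1 and 2510039O18Rik, had mean levels of 20.3, 7.38, 39.3 and 20.2 TPM, with SDs of 1.65, 0.0354, 1.39 and 0.141. On the Nppa side were Agtrap at 15.4 ± 0.445 TPM and Mad2l2 at 31.0 ± 1.65 TPM. Draxin, an axon guidance gene between Agtrap and Mad2l2, had 0.04 and 0.06 TPM and was the only one of the 9 under 1 TPM. The levels of Nppa and Nppb were thus not shared by these 9 genes.

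**Figure D4:**
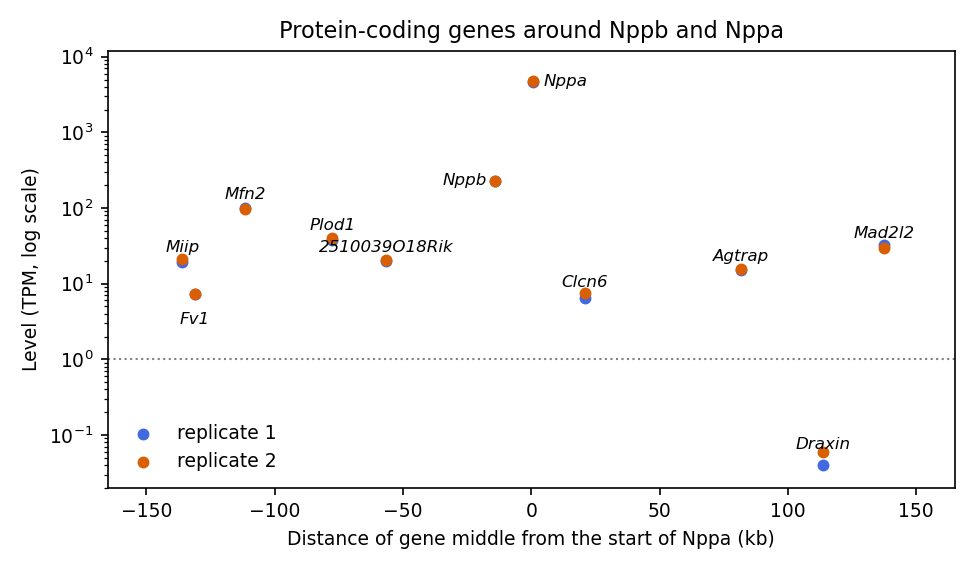
Levels in TPM (log scale) of Nppb, Nppa and 9 protein-coding genes around them, by the distance in kb of the middle of each gene from the start of Nppa, with 1 point per library. Nppa and Nppb stand above all 9 of these genes, Draxin lies under the dotted 1 TPM line, and the 8 others lie between 6.38 and 101 TPM.

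Of 13 genes listed for peptide processing and clearance, not all of them acting on natriuretic peptides, 9 reached 1 TPM in both libraries. The list median was 16.5 TPM against 3.64 TPM over all nuclear protein-coding genes. The highest were Pam, the peptide-amidating enzyme, at 321 TPM in replicate 1 and 306 in replicate 2, and Ece1, endothelin-converting enzyme, at 99.8 and 117 TPM. Ide, the insulin-degrading enzyme that can also cut natriuretic peptides, had 50.6 and 49.6 TPM, and Hspg2, the basement membrane proteoglycan perlecan, had 42.2 and 49.8 TPM. The protease genes Mmel1, Tmprss2 and Tmprss6 had at most 0.37 TPM, and Ostn, whose peptide osteocrin binds the clearance receptor, was listed at 0 in both libraries. Furin, a protease that cuts peptide precursors, had 20.0 and 21.1 TPM, close to Corin. Mme, the peptide-degrading protease neprilysin, had 9.30 and 9.27 TPM, in the range of the receptors.

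Downstream of cyclic GMP, 16 of 19 genes were detected and the median was 5.40 TPM. Pln, phospholamban, the brake of the sarcoplasmic calcium pump, led at 464 and 498 TPM. The kinase substrate Vasp had 76.6 and 80.5 TPM, the cyclic nucleotide exporter Abcc5 76.2 and 77.7 TPM, and the myosin phosphatase subunit Ppp1r12a 54.9 and 56.4 TPM. The cyclic GMP-dependent kinase Prkg1 had 9.42 and 9.70 TPM. Of the phosphodiesterases, which break down cyclic nucleotides, Pde1a was the highest at 33.0 and 33.4 TPM, followed by Pde3a at 8.73 and 8.62 TPM, Pde3b at 5.50 and 6.71 TPM and Pde9a at 4.53 and 4.35 TPM. Pde1b, Pde5a, Pde1c and Pde10a had means of 3.04, 1.78, 1.66 and 1.35 TPM. The kinase Prkg2 and the phosphodiesterase Pde11a had at most 0.49 TPM, and the channel gene Trpc6, with 0.66 and 1.12 TPM, passed 1 TPM in replicate 2 only. Pde2a was in the list but matched no row.

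The other source of cyclic GMP, nitric oxide with its soluble guanylyl cyclase, stood out in a list that was otherwise near 0. Of 13 genes, 3 were detected, and the median was 0.085 TPM. The 3 were the cyclase subunits Gucy1b1 (50.7 and 49.6 TPM) and Gucy1a1 (43.6 and 41.8 TPM) and Nos3, endothelial nitric oxide synthase (37.5 and 38.1 TPM). Each was above the summed receptor level of 26.8 TPM. The synthases Nos1 and Nos2, the cyclase subunit Gucy1a2, the membrane cyclases Gucy2c, Gucy2d, Gucy2e, Gucy2f and Gucy2g, and the guanylin ligands Guca2a and Guca2b all had at most 0.79 TPM. Among all the membrane guanylyl cyclases listed, Npr1 and Npr2 were thus the ones detected.

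The G-protein and phospholipase genes through which the clearance receptor can signal were detected in 7 of 7 cases and had a median of 26.9 TPM. The inhibitory alpha subunit Gnai2 led at 330 and 359 TPM, followed by Gnai3 at 79.3 and 77.2 TPM and by the phospholipase Plcb4 at 27.0 and 27.6 TPM and the subunit Gnai1 at 26.4 and 27.3 TPM. Transcription factors known from work on the Nppa and Nppb promoters were detected in 20 of 20 cases and had a median of 35.9 TPM. Nkx2-5 (164 and 172 TPM), Gata4 (155 and 163 TPM), Tbx20 (92.8 and 87.5 TPM) and Mef2a (69.9 and 77.0 TPM) led. Over the 5 lists, 55 of 72 genes were detected, beside the 57.5% of all nuclear protein-coding genes.

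**Figure D5:**
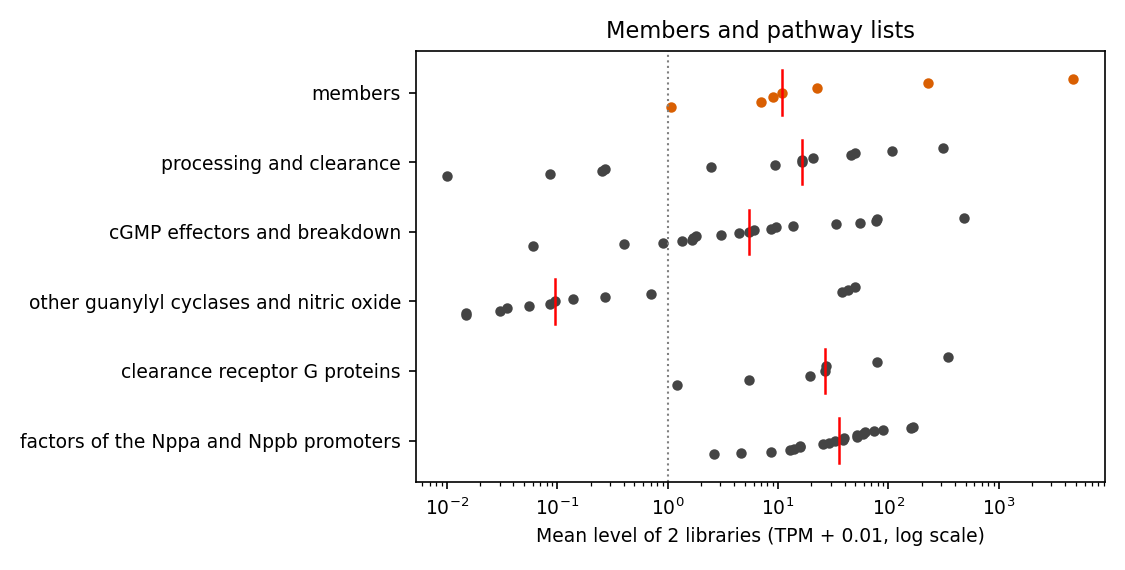
Mean level of 2 libraries (TPM + 0.01, log scale) of each gene, with 1 point per gene, for the 7 members and the 5 pathway lists; the red line is the median of each row and the dotted line is 1 TPM. The guanylyl cyclase and nitric oxide list splits into 3 genes between 37.8 and 50.2 TPM and 10 genes under 1 TPM, and all 20 transcription factors lie above 1 TPM.

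Reads on mouse genes numbered 33480066 in replicate 1 and 30665239 in replicate 2, and spike-ins took 3.66% and 3.71% of all estimated reads. Markers of heart muscle were detected in 6 of 6 cases, of atrial muscle in 8 of 8, of ventricular muscle in 7 of 7, of trabecular muscle in 6 of 6 matched, and of endocardium and endothelium in 8 of 8. Red cell markers summed to 67694 and 60926 TPM, with 7 of 7 detected. Cushion and fibroblast markers were detected in 7 of 7 cases, epicardial in 7 of 7 and smooth muscle and pericyte in 7 of 8. Liver markers summed to 262 and 72.9 TPM, with 8 of 10 detected and all 10 lower in replicate 2 by 1.5-fold or more. With no fold limit, 7 of 8 atrial and 7 of 7 red cell markers were lower in replicate 2. Of ventricular markers 0 of 7 were lower, of trabecular 2 of 6 and of heart muscle 3 of 6. In these 5 lists 0 markers were 1.5-fold apart, so the counts include near ties. The share of all genes lower in replicate 2 was not counted. Lung and foregut markers summed to 3.46 and 5.83 TPM, with 1 of 6 detected, 2 of 6 lower in replicate 2 and 4 of 6 at least 1.5-fold apart. In replicate 1 and replicate 2, Nkx2-1 had 5 and 49 reads and Sftpc 0 and 14. Cartilage and limb markers were detected in 3 of 6 cases and neural markers in 4 of 6. The part of these other cell types in the levels of the members was not tested.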

How the data were processed

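Total RNA of embryonic hearts was sequenced in 2 libraries of 1 group. Per the file headers and labels, reads were quantified on mm10 with GENCODE M4; quantifier, version and strand setting: not given in the sources used here. An expected count, as deposited, estimates the reads of a gene or transcript and need not be whole; these were rounded for edgeR and DESeq2. The deposited TPM is a length-scaled share over all features, spike-ins included, so an abundant feature moves every other; deposited FPKM was used as an alternative. The deposited percent gives a transcript's share of its gene; shares here were recomputed from TPM. Posterior SDs and interval bounds (values never negative, recorded as signal) were deposited without a stated level.

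The members and gene lists were chosen with earlier results of these data known. Of 43346 gene identifiers, 42462 matched GENCODE M21 (GRCm38), which gave names, types and positions. Detected means at least 1 TPM in both libraries. Pairs were compared within each library as log2 ratios of TPM + 0.1, a scale that understates differences of low genes. A pair was set apart when both signs were the same and the mean exceeded 3 standard errors, from the robust SD between libraries in 20 abundance bins. The spread estimate and the pair rule were tried on simulated counts, with pairs only from genes more abundant than the receptors and Nppc. The other steps were not simulated. Named genes were all members, up to 4 leading and all undetected genes of each list, the nearest 5 neighbours on each side (1 of them and 1 sequence are not reported here), overlapping genes and the 3 genes nearest in level to Nppa each way; Furin, Mme, Prkg1, the detected phosphodiesterases and the 3 further G-protein genes were named after their values were seen. Versions were Python 3.11.15, pandas 2.3.3, scipy 1.17.1, Biopython 1.88, matplotlib 3.10.9, R 4.3.3, edgeR 4.0.16 (TMM factors) and DESeq2 1.42.0 (size factors).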

Additional observations from a re-analysis of the deposited data

How the results depend on the processing

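No paired analysis was possible because the labels give 1 group. Under 40 alternatives to the 6 main results (other units, scalings, pseudocounts, thresholds and each library alone), every count stayed within 1.5 times its main value; counts at 0 or at nearly all of a small list could hardly do otherwise. Of 7 members, 6 were detected in FPKM and 6 at a threshold of 2 TPM, where Nppc dropped out. Pairs set apart numbered 7 to 9 of 9, with 7 when either replicate was left out. Npr2 over Npr1 was the call lost without replicate 1, without replicate 2 and with full coding transcripts. Npr3 over Npr2 passed with full coding transcripts and with the longest length, since both lower Npr2 and neither can lower Npr3, which has 1 transcript in the files. Detected pathway genes numbered 50 to 57, with 55 to 56 when a replicate was left out. Leaving out either replicate kept 7 members and 8 neighbours detected and the same leading transcript in 3 of 3 genes. Of 42 alternative values of member levels 18 moved by more than 1 SD, and of 12 of leading transcript shares 4 did; no pair set apart changed sign, but the uncalled differences between libraries of Nppb, Npr2 and Npr3 did, with the scaling. With the total taken over nuclear genes without spike-ins and globins, all levels rise together, Nppa to 5852 TPM. Counting reads instead of TPM, the leading transcript held 87.5% of Npr1 and 68.8% of Npr2, since the other transcripts are short. With 2 libraries the 1.18-fold step between Npr3 and Npr2 could not be separated, and 24 and 21 reads limit Nppc.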
